A study of Mus musculus with 22 samples.

Results

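A set of genes altered in human pancreatic neuroendocrine tumours was followed through the stages of an islet tumour in mice. The set has 9 genes, Men1, Daxx, Atrx, Setd2, Arid1a, Tsc1, Tsc2, Phlda3 and Mutyh, out of 19938 genes with a usable probe set. They were chosen for their role in the human disease, with earlier results of these data known. Each is represented by the probe set that carries its symbol alone, and where a gene has several, by the one with the highest mean.

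All samples came from RIP1-Tag2 mice, in which the insulin promoter drives the large T antigen of the virus SV40 in pancreatic beta cells. T antigen inactivates the p53 and Rb proteins, so tumours arise by way of overgrown and then vascularised islets, and no mutation was engineered in the genes studied here. The 22 arrays hold 3 normal, 3 hyperplastic and 3 angiogenic islet samples, 5 islet tumours, 5 primary tumours labelled as metastasis-like (MLP) and 3 liver metastases (Met). The normal islets carry the same genotype label as the tumours and are not from wild-type mice. The sources used here give no age, sex or strain background, and they do not state how a primary came to be labelled metastasis-like. Islet tumours and metastasis-like primaries are both primary tumours, and the labels do not order them in time. Stage therefore means only the order of the groups as listed here. Whether the samples stem from different animals is not stated either, so the p-values measure only the spread between these samples. Samples are named by their titles, and all 3 metastases carry the prefix I. Values are log2 intensities, and a difference of 1 is a doubling.

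In the human tumours these genes fall into a few pathways. MEN1 encodes menin, a scaffold that joins histone H3 lysine 4 methyltransferases of the MLL family and keeps inhibitors of cyclin-dependent kinases expressed in islet cells. DAXX and ATRX together place the histone variant H3.3 at telomeres and other heterochromatin, and their loss goes with telomeres that are kept long without telomerase. SETD2 trimethylates lysine 36 of histone H3, and ARID1A is a subunit of the SWI/SNF nucleosome remodeller. TSC1 and TSC2 form the complex that holds back mTORC1, a kinase complex for growth. PHLDA3, a p53 target, competes with the kinase AKT for membrane lipids, and MUTYH is a base excision repair glycosylase that removes adenine mispaired with oxidised guanine.

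Of the 9 genes, Men1, Phlda3 and Mutyh had the clearest single steps, and each step came at a different stage. Their promoters are shown because these genes carry the main differences described here. Each window runs from 250 bases before to 50 bases after the first listed start, 5′ to 3′ along the gene, with CpG dinucleotides in capitals (RefSeq, GRCm38.p6). The windows are chr19:6334729-6335028, plus strand for Men1, chr1:135765835-135766134, plus strand for Phlda3 and chr4:116807484-116807783, plus strand for Mutyh.
Men1: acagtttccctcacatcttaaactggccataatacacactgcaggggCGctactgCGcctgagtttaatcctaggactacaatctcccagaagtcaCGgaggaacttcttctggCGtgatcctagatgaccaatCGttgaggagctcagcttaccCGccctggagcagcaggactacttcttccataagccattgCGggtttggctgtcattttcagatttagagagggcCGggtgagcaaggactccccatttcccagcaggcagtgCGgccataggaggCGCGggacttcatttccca
Phlda3: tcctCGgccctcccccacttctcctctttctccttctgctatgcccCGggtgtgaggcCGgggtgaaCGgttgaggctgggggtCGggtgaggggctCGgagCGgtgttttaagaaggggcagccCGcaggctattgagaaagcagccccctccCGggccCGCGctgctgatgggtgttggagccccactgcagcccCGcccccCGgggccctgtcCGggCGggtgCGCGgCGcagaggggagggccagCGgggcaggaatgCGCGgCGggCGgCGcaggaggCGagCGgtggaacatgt
Mutyh: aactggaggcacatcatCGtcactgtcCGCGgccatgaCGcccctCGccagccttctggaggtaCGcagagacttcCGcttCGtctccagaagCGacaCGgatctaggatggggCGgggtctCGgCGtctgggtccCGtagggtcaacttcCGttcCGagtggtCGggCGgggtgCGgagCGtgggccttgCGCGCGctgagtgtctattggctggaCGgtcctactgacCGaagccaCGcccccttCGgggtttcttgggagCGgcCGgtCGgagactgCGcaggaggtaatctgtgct
The Men1 window holds 11 CpG, that of Phlda3 26 and that of Mutyh 31, against a median of 7 over the first windows of 27025 genes. The windows of the other 6 genes hold from 11 CpG in Atrx to 38 in Setd2. The letters TTTGGCGC, TTTCCCGC, TTTCGCGC and TTTGCCGC, forms of the site of the cell cycle factor E2F, were searched on both strands. They occur in 0 of the 9 windows and in 2.32% of all windows, which says only that these letters are not there.

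Across all stages 8 of the 9 genes differed among the 6 groups by limma's F test, where 58.7% of all genes did. Arid1a was the exception (adjusted p = 0.132), and Men1 had the smallest adjusted p of the set (6.92e-08), followed by Mutyh (1.06e-06). The differences are modest in size. The range between the highest and the lowest group mean was 0.99 log2 for Men1, 0.68 for Setd2 and Mutyh, 0.63 for Atrx and 0.51 for Phlda3. It was 0.34 for Daxx, 0.32 for Arid1a, 0.27 for Tsc2 and 0.25 for Tsc1.

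**Figure D1:**
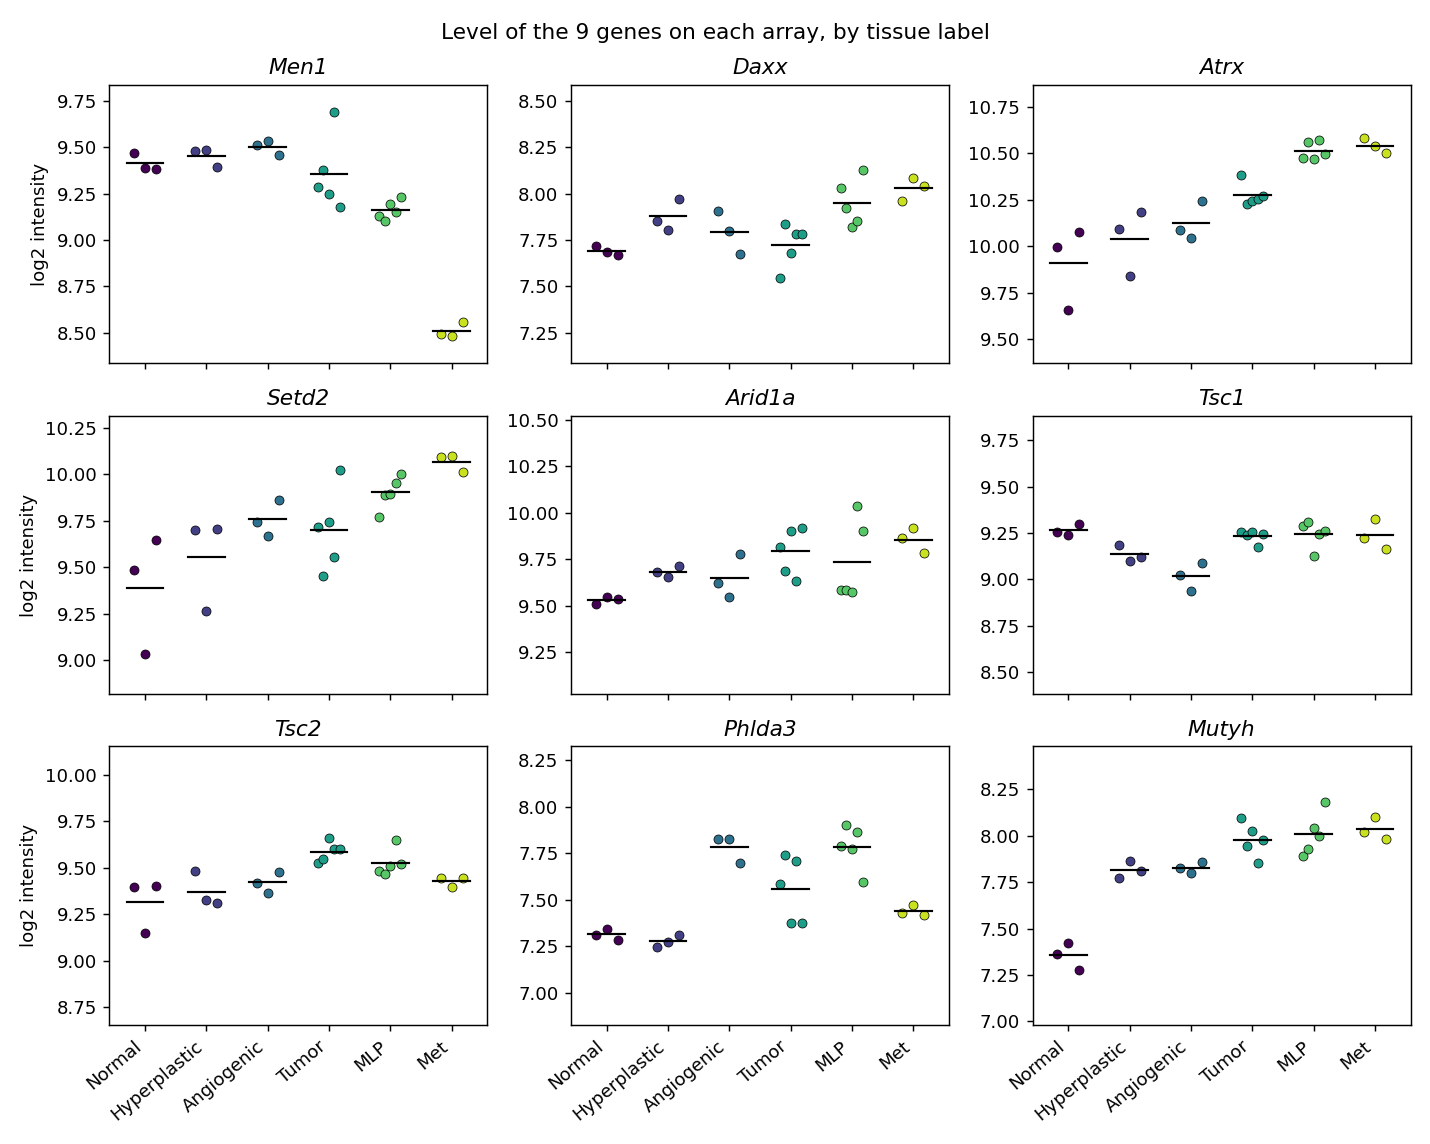
Log2 intensity of each of the 9 genes (y axis, every panel spanning the same range of log2 units) by tissue label in stage order (x axis), with 1 point per array and a line at the group mean. Men1 lies between 8.48 and 8.56 in the 3 metastases and at 9.10 or above everywhere else, Mutyh steps up between normal and hyperplastic islets, and Phlda3 is high in angiogenic islets and in metastasis-like primaries.

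The samples were bulk tissue, so fewer cells of a type and less RNA per cell cannot be told apart, and markers of other cells moved between stages. Beta cell markers (8 genes) averaged 11.42 to 11.48 in normal islets, 10.25 to 10.78 in the tumours of the islets, 8.05 to 8.69 across the metastasis-like primaries and 8.62 to 9.30 in metastases. Hepatocyte markers (7 genes) averaged 6.38 to 6.78 in islet tumours, 6.88 to 7.32 across metastasis-like primaries and 10.15 to 10.60 in metastases, and they were also raised in Angiogenic2006 (8.26) and Angiogenic2007 (9.0). Fibroblast markers (6 genes) averaged 10.08 to 10.32 in angiogenic islets and 8.39 to 8.48 in hyperplastic islets. Acinar markers averaged 8.98 in Normal2007 but 11.51 and 11.99 in the other normal islets, and 3 of 5 were lower in metastases than in metastasis-like primaries.

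Men1 was lower in all 3 liver metastases than in any other sample. It stood at 8.49 in I-9820-Met, 8.48 in I-9821-Met and 8.56 in I-9822-Met. The 5 metastasis-like primaries had 9.13 in I-9812-MLP, 9.10 in II-648-MLP, 9.19 in II-6413-MLP, 9.15 in III-8016-MLP and 9.23 in III-8023-MLP. The groups do not overlap, and the gap between them is wider than the range within either. Men1 averaged 8.51 ± 0.04 in metastases (SD, n = 3) and 9.16 ± 0.05 in metastasis-like primaries (SD, n = 5), a difference of -0.65 ± 0.08 log2 (SE, limma, adjusted p = 1.26e-05). Leaving out single arrays kept that difference between -0.68 and -0.63.

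Before the metastatic stage Men1 stayed close to its level in normal islets. It averaged 9.41 ± 0.05 in normal, 9.45 ± 0.05 in hyperplastic and 9.50 ± 0.04 in angiogenic islets (SD, n = 3 each), with the samples of neighbouring stages overlapping. The islet tumours were spread more widely, with 9.28 in I-9811-tumor, 9.38 in II-649-tumor, 9.25 in II-6415-tumor, 9.69 in III-8017-tumor and 9.18 in III-8024-tumor. III-8017-tumor was the highest of all 22 samples, and the other tumours reached at most 9.38. Metastases differed from islet tumours by -0.84 ± 0.08 (adjusted p = 1.03e-07) and from normal islets by -0.90 ± 0.09 (adjusted p = 8.22e-08). Metastasis-like primaries were lower than normal islets by a smaller amount, -0.25 ± 0.08 (adjusted p = 0.0199), a call lost without NormalI-93 (adjusted p = 0.0805). Against islet tumours they had -0.19 ± 0.07 (adjusted p = 0.0569), and within the title prefixes I, II and III the differences were -0.16, -0.16 and -0.24.

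The genes whose pattern was most like that of Men1 lie on the same chromosome. By the root mean square difference over the 22 arrays, each gene centred on its own mean, the closest were Cacul1 (0.10), Hif1an (0.11) and Dpf2 (0.12), against 0.32 for Men1 around its own mean. All 3 are on chromosome 19 with Men1 in the RefSeq gene table (GRCm38.p6). For the other genes of the set that differed among groups, the closest genes were spread over chromosomes, and 4 of those 21 shared the chromosome of the gene they resembled. These were Exosc10 and Hmgn2 for Mutyh on chromosome 4, Stag1 for Setd2 on chromosome 9 and Ankrd16 for Tsc1 on chromosome 2. Atrx on the X chromosome was closest to Nf1 on chromosome 11 (0.07). Tsc2 was closest to Ints1 (0.06), Daxx to Gtf3c5 (0.10) and Phlda3 to Tpcn2 (0.12).

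The whole of chromosome 19 was shifted downward in the metastases. This pattern was looked for after the genes most like Men1 had been seen. Of 675 genes on chromosome 19, 290 were called lower in metastases than in metastasis-like primaries, or 43.0%, where 7.87% of all genes were called lower and 15.7% were called in either direction. Against islet tumours 343 of the 675 were called lower (50.8%), where 19.3% of all genes were called lower and 36.6% called in either direction. Among the 507 genes of the chromosome that remain without the dimmest 25% of all genes, 461 (90.9%) had a mean below that of metastasis-like primaries, against 52.7% of the genes of the whole genome so filtered. Their median difference was -0.39 log2. For the other 18 autosomes and the X chromosome the same median lay between -0.04 and 0.04.

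The shift was present on each metastasis array and on no array of another stage. Relative to the mean of normal islets, the median over chromosome 19 genes other than Men1 was -0.43 in I-9820-Met, -0.42 in I-9821-Met and -0.37 in I-9822-Met. It lay between -0.07 and 0.00 in the hyperplastic and angiogenic islets, between -0.03 and 0.01 in the islet tumours and between -0.08 and -0.03 in the metastasis-like primaries. The metastases therefore do not overlap with any other group in this measure. Men1 itself was 0.92, 0.93 and 0.85 below its normal-islet mean in the same 3 metastases. Its difference from metastasis-like primaries was more negative than the lower quartile of chromosome 19 (-0.54), and it ranked 81 from the lowest of 507. After the shift of its chromosome was subtracted on every array, Men1 differed by -0.29 ± 0.08 between metastases and metastasis-like primaries (adjusted p = 0.0167) and by -0.45 ± 0.08 between metastases and islet tumours (adjusted p = 0.000162).

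**Figure D2:**
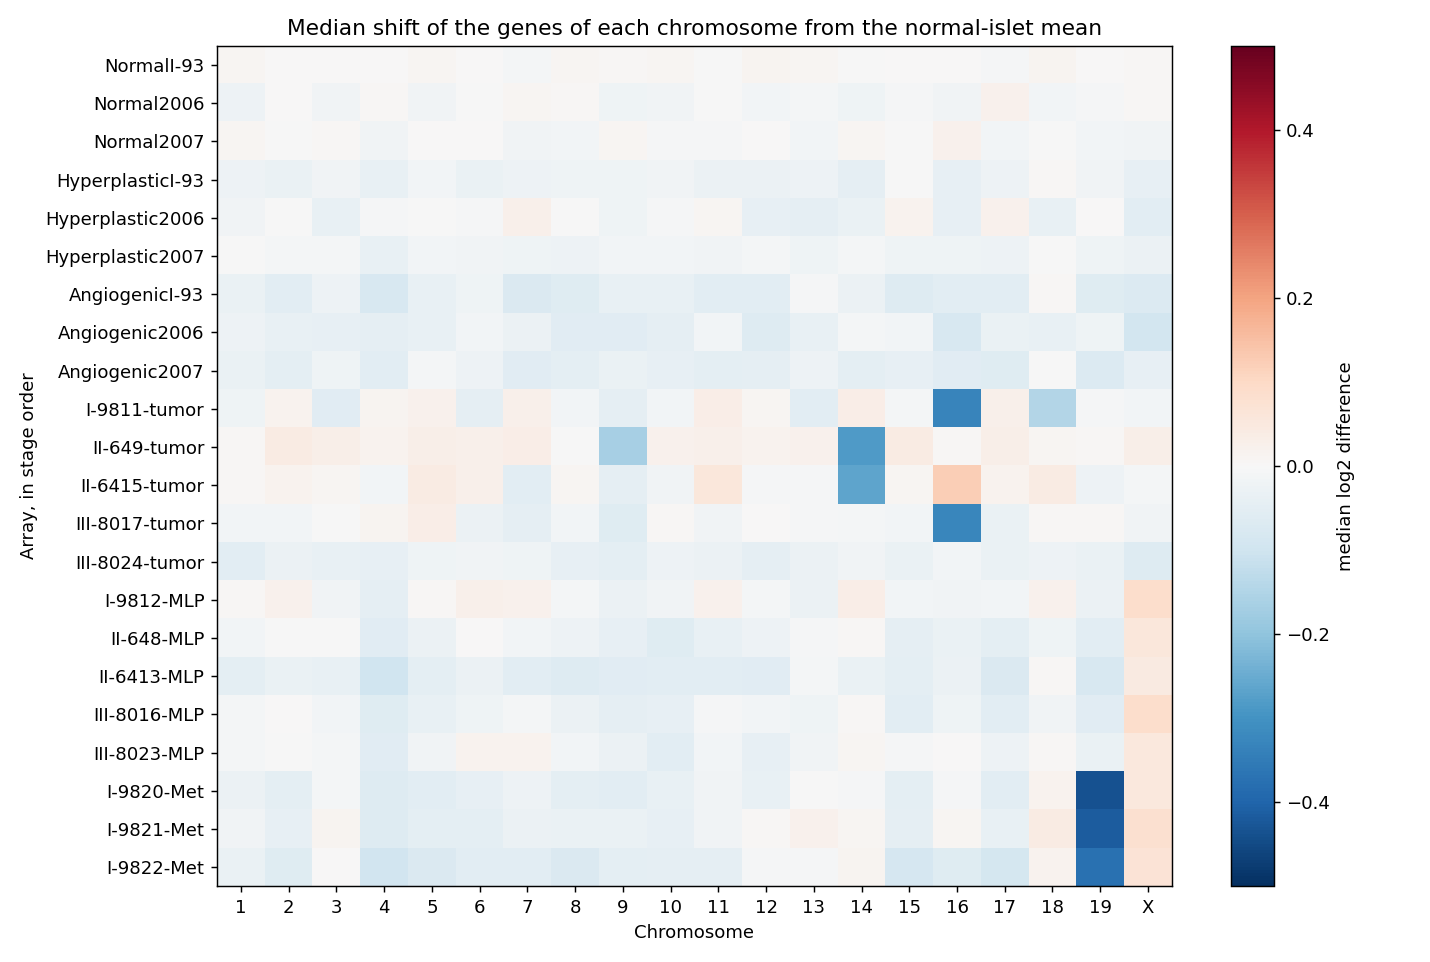
Median log2 difference from the normal-islet mean over the genes of each chromosome (x axis), without the dimmest 25% of genes, on each of the 22 arrays in stage order (y axis), with the value as colour. Chromosome 19 is at -0.43, -0.42 and -0.37 in the 3 metastases, and single islet tumours have low values on chromosome 14 (-0.28 in II-649-tumor) and chromosome 16 (-0.33 in III-8017-tumor).

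Hepatocyte markers were high in the same 3 samples, and their part in the Men1 difference was not tested. Hepatocyte means were 10.15 to 10.60 in metastases and no higher than 9.0 on any other array. A fit with this mean as a covariate therefore cannot separate hepatocyte RNA from the metastasis label. It gave Men1 a difference of -0.68 ± 0.24 between metastases and metastasis-like primaries, without a call (limma, adjusted p = 0.348). The standard error without the covariate was 0.08. The covariate also ended the calls in metastases against islet tumours of Daxx (0.74 ± 0.25, adjusted p = 0.153), Atrx (0.04 ± 0.28, adjusted p = 0.972) and Setd2 (0.32 ± 0.42, adjusted p = 0.776). It ended that of Phlda3 against metastasis-like primaries (-0.28 ± 0.24, adjusted p = 0.748) and those of Atrx, Setd2 and Arid1a against normal islets (adjusted p = 0.334 to 0.828). In Angiogenic2006 and Angiogenic2007, where hepatocyte markers averaged 8.26 and 9.0, Men1 stood at 9.54 and 9.46, and the median of chromosome 19 was -0.02 and -0.07. Those hepatocyte means lie below the 10.15 to 10.60 of the metastases. DNA copy number was not measured, and its part was not tested. All metastases share the prefix I, and the prefix I primaries had Men1 at 9.13 (MLP) and 9.28 (islet tumour).

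**Figure D3:**
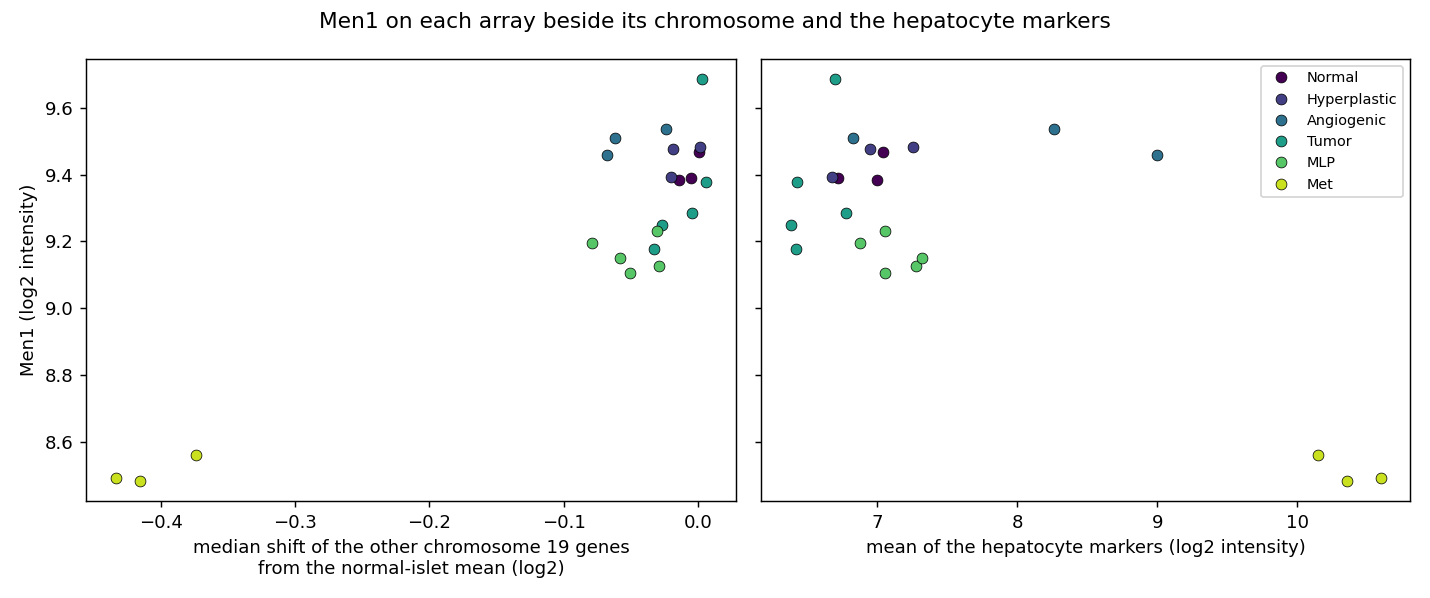
Men1 level (y axis, log2 intensity) on each array against the median shift of the other chromosome 19 genes (left) and the mean of the hepatocyte markers (right), coloured by tissue label. The 3 metastases are apart in both panels, with Men1 at 8.48 to 8.56 and hepatocyte means of 10.15 to 10.60.

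Partners and targets of menin, and the demethylase Kdm5b, were measured beside Men1. The 12 measured genes encode MLL complex subunits, Psip1, JunD, inhibitors that menin acts on, and Kdm5b. In metastases against metastasis-like primaries 0 of the 12 were called by limma (3 at an unadjusted p under 0.05), where 15.7% of all genes were called. Their median was 0.06 log2 where that of all genes was -0.01. Against normal islets, where 45.8% of all genes were called, 9 of the 12 were higher and 2 lower in metastases. The cyclin-dependent kinase inhibitor Cdkn2c averaged 10.89 in metastases and 8.32 in normal islets (2.56 ± 0.28, adjusted p = 1.52e-07). Its rise came early, with 10.50 in hyperplastic islets (2.18 ± 0.28 above normal islets, adjusted p = 2.18e-05). The normal islets were widely spread, with an SD of 0.94 against 0.11 in hyperplastic islets. Cell cycle markers were higher at the same step (7 of 7). Their part in the Cdkn2c difference was not tested. Cdkn1b, the inhibitor p27, averaged 10.36 in metastasis-like primaries and 10.06 in islet tumours (0.30 ± 0.07, adjusted p = 0.00231). Kdm5b, which removes the methyl marks that MLL complexes place, fell to 8.34 in metastasis-like primaries, against 9.56 in normal islets (-1.22 ± 0.13, adjusted p = 1.14e-07). JunD, a menin-bound transcription factor (Jund), averaged 8.78 in islet tumours and 9.46 in angiogenic islets (-0.68 ± 0.12, adjusted p = 0.00101).

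Atrx had a higher mean in each group in the listed order and was highest in metastasis-like primaries and metastases. It averaged 9.91 ± 0.22 in normal, 10.04 ± 0.18 in hyperplastic and 10.13 ± 0.11 in angiogenic islets (SD, n = 3 each), 10.28 ± 0.06 in islet tumours and 10.51 ± 0.05 across metastasis-like primaries (SD, n = 5 each) and 10.54 ± 0.04 in metastases (SD, n = 3). Neighbouring stages overlapped as groups except for one step. HyperplasticI-93, Hyperplastic2006 and Hyperplastic2007 exceeded the normal islets of the same title code by 0.10, 0.19 and 0.11, and angiogenic exceeded hyperplastic islets in 2 of 3 codes. With the code as a block neither step was called (0.13 ± 0.07 and 0.09 ± 0.07, adjusted p = 0.285 and 0.593). The metastasis-like primaries had 10.47, 10.56, 10.47, 10.57 and 10.50, and the islet tumours had 10.39, 10.23, 10.25, 10.26 and 10.27, so that every metastasis-like primary lay above every islet tumour. That step was 0.24 ± 0.08 (adjusted p = 0.0258), where 26.5% of all genes were called. The difference was 0.09, 0.28 and 0.27 within the prefixes I, II and III. The call was lost without any 1 of II-649-tumor, II-648-MLP and III-8016-MLP (adjusted p = 0.0561 to 0.0575).

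Islet tumours exceeded normal islets in Atrx by 0.37 ± 0.09 (adjusted p = 0.00293), where 29% of all genes were called, and metastases exceeded them by 0.63 ± 0.10 (adjusted p = 1.74e-05). Metastases exceeded islet tumours by 0.26 ± 0.09 (adjusted p = 0.0236), a call lost without I-9820-Met or I-9821-Met (adjusted p = 0.0857 and 0.0636). Atrx is X-linked, and Xist, the RNA that coats the inactive X of female cells, was at 5.33 to 6.46 in all tumours and metastases and at 10.67 to 11.41 in all islet samples. Its part in the difference between islets and tumours was not tested. Xist separates all islets from all tumours and metastases, so it cannot be told apart from stage in any such comparison, for any gene. Between islet tumours and metastasis-like primaries Xist was low on both sides, but the X chromosome as a whole differed slightly. The median shift of its genes lay between 0.04 and 0.09 in metastasis-like primaries and between -0.06 and 0.03 in islet tumours. With that shift subtracted, Atrx differed by 0.16 ± 0.08 between metastasis-like primaries and islet tumours (adjusted p = 0.153), and by 0.38 ± 0.09 between islet tumours and normal islets (adjusted p = 0.0022).

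Daxx, the partner of Atrx, was called higher in metastases and metastasis-like primaries, by 0.23 to 0.34 log2 against islet tumours and normal islets. It stood at 7.54, 7.83, 7.68, 7.78 and 7.78 in islet tumours, at 8.03, 7.92, 7.82, 7.86 and 8.13 in metastasis-like primaries and at 7.96, 8.09 and 8.04 in metastases. All metastases lay above all islet tumours, while 1 metastasis-like primary, II-6413-MLP, lay just below the highest islet tumour. Metastases differed from islet tumours by 0.30 ± 0.08 (adjusted p = 0.00541) and metastasis-like primaries differed by 0.23 ± 0.07 (adjusted p = 0.0206). The second call was lost without any 1 of I-9811-tumor, I-9812-MLP and III-8023-MLP (adjusted p = 0.0536 to 0.07). Normal islets were the most even group for Daxx, with 7.67 to 7.72, and hyperplastic islets had 7.81 to 7.97 without a call (0.19 ± 0.09, adjusted p = 0.249). Hyperplastic islets were higher in 3 of 3 title codes, and with the code as a block the step was not called either (limma, adjusted p = 0.248).

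Among 13 measured H3.3 chaperones and heterochromatin partners of the pair, 9 were higher and 2 lower in metastases than in normal islets, where 45.8% of all genes were called. The median was 0.48 log2, where that of all genes was -0.04. The heterochromatin protein Cbx3 (HP1 gamma) averaged 11.55 in metastases and 11.03 in metastasis-like primaries (0.52 ± 0.09, adjusted p = 0.000402), and 10.67 in islet tumours. The histone chaperone Asf1b, which supplies histones in S phase, averaged 10.04 in hyperplastic and 8.05 in normal islets (1.99 ± 0.22, adjusted p = 8.37e-06). Cabin1, a subunit of the other H3.3 chaperone, fell to 8.83 in metastases, against 9.22 in islet tumours (-0.39 ± 0.08, adjusted p = 0.000407). Sp100, a component of the nuclear bodies where Daxx resides, averaged 7.11 in islet tumours and 8.42 in angiogenic islets (-1.31 ± 0.26, adjusted p = 0.00312).

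Telomere genes moved in both directions. Of 9 measured, 5 were higher and 1 lower in metastasis-like primaries than in normal islets, where 42.8% of all genes were called. Terf1, which binds telomere repeats, averaged 9.59 in metastasis-like primaries and 8.99 in normal islets (0.60 ± 0.08, adjusted p = 2.48e-06). Terf2, its relative that caps chromosome ends, was the one that fell, with 8.79 in metastasis-like primaries and 9.53 in normal islets (-0.74 ± 0.07, adjusted p = 1.94e-08). Dyskerin (Dkc1), a telomerase component, averaged 9.17 in metastases and 8.79 in metastasis-like primaries (0.38 ± 0.10, adjusted p = 0.0131).

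Setd2 had its highest mean in metastases, but its difference from metastasis-like primaries was not called (0.17 ± 0.13, limma, adjusted p = 0.458). The hyperplastic islets had 9.70, 9.27 and 9.71 and the normal islets 9.48, 9.03 and 9.65, so Hyperplastic2006 and Normal2006 were the lowest of their groups. Set against the normal islets of the same title code, Setd2 was higher in HyperplasticI-93, Hyperplastic2006 and Hyperplastic2007 by 0.22, 0.24 and 0.06. Set against these, it was higher in AngiogenicI-93, Angiogenic2006 and Angiogenic2007 by 0.04, 0.40 and 0.16. With the code as a block these steps were 0.17 ± 0.11 and 0.20 ± 0.11, and neither was called (adjusted p = 0.406 and 0.415). Setd2 stood at 9.72, 9.45, 9.74, 9.55 and 10.02 in islet tumours, at 9.77 to 10.00 in metastasis-like primaries (median 9.89) and at 10.09, 10.10 and 10.01 in metastases. Metastases exceeded normal islets by 0.68 ± 0.15 (adjusted p = 0.000542) and metastasis-like primaries exceeded them by 0.52 ± 0.13 (adjusted p = 0.00274). Metastases exceeded islet tumours by 0.37 ± 0.13 (adjusted p = 0.0303), but III-8024-tumor lay within the metastases, and the call was lost without any single metastasis and without II-649-tumor or III-8017-tumor (adjusted p = 0.0553 to 0.0909). A second probe set of Setd2 gave 0.55 ± 0.12 for metastases against normal islets (adjusted p = 0.000827) and 0.30 ± 0.11 against islet tumours (adjusted p = 0.039). Against metastasis-like primaries that probe set had 0.10 ± 0.11, without a call (adjusted p = 0.607). Atrx was also lowest in Hyperplastic2006 (9.84) and Normal2006 (9.65) among hyperplastic and normal islets.

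Other enzymes and readers of histone H3 lysine 36 moved in both directions, with 3 of 17 higher and 5 lower in metastases than in normal islets. That count is close to the 45.8% of all genes called in this comparison. Nsd2, which dimethylates the residue, averaged 10.26 in metastases and 8.87 in normal islets (1.39 ± 0.12, adjusted p = 5.27e-09). Kdm2a, a demethylase of the residue that is encoded on chromosome 19, fell to 9.27 in metastases, against 9.77 in metastasis-like primaries (-0.49 ± 0.09, adjusted p = 0.000818). The DNA methyltransferase Dnmt3a, which reads the mark, averaged 9.37 in metastasis-like primaries and 9.79 in islet tumours (-0.42 ± 0.09, adjusted p = 0.00119).

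Arid1a varied least clearly with stage. It had 9.87, 9.92 and 9.78 in metastases and 9.51, 9.55 and 9.54 in normal islets, which do not overlap, and differed by 0.32 ± 0.11 (adjusted p = 0.0211). The call was lost without I-9820-Met, I-9821-Met or NormalI-93 (adjusted p = 0.0527 to 0.0728). The metastasis-like primaries split, with 10.04 and 9.90 in the samples of prefix III and 9.57 to 9.59 in the other 3. Islet tumours of prefix III had 9.63 and 9.92, so the prefix did not separate them in the same way.

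Of 24 measured SWI/SNF subunits, 8 were higher and 4 lower in metastasis-like primaries than in islet tumours, where 26.5% of all genes were called. Smarca2, one of the alternative ATPases of the complex, averaged 9.88 in metastasis-like primaries and 8.93 in islet tumours (0.94 ± 0.10, adjusted p = 3.89e-07). Smarcd3 averaged 7.72 in metastasis-like primaries and 7.10 in islet tumours, while Dpf3 averaged 7.65 and 8.43 in the same groups (0.62 ± 0.08 and -0.78 ± 0.10, adjusted p = 4.07e-06 and 1.93e-06). Against metastasis-like primaries, metastases had 2 subunits higher and 3 lower, close to the 15.7% of all genes called. Dpf2 fell to 8.96 in metastases, against 9.53 (-0.57 ± 0.07, adjusted p = 8.81e-06), and Smarca2 fell to 9.28, against 9.88 (-0.59 ± 0.12, adjusted p = 0.00143). Both are encoded on chromosome 19. Smarca2 in metastases was nonetheless higher than in islet tumours (9.28 against 8.93, 0.35 ± 0.12, adjusted p = 0.0245) and had -0.13 ± 0.13 against normal islets (adjusted p = 0.451).

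Tsc1 and Tsc2, whose proteins act as 1 complex, did not run in parallel. Tsc1 was lowest in angiogenic islets, with 9.26, 9.24 and 9.30 in normal islets, 9.19, 9.10 and 9.12 in hyperplastic islets and 9.02, 8.94 and 9.09 in angiogenic islets. The 3 islet stages do not overlap, yet neither step was called (-0.13 ± 0.07 and then -0.12 ± 0.07, adjusted p = 0.301 and 0.48). At both steps Tsc1 was lower in all 3 title codes. With the code as a block neither step was called (limma, adjusted p = 0.283 and 0.426). Islet tumours, with 9.17 to 9.26, lay above angiogenic islets by 0.22 ± 0.06 (adjusted p = 0.0285), where 9.54% of all genes were called. That call was lost without AngiogenicI-93, Angiogenic2006 or II-6415-tumor (adjusted p = 0.051 to 0.145) and when only the compared arrays were fitted (0.129). Fibroblast markers moved the opposite way at both steps, with 6 of 6 higher in angiogenic than in hyperplastic islets and 6 of 6 lower in islet tumours than in angiogenic islets. Their part was not tested.

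Tsc2 was highest in islet tumours, with 9.52 to 9.66, against 9.39, 9.15 and 9.40 in normal islets (0.27 ± 0.07, adjusted p = 0.00491). Without Normal2006 the difference was 0.19 (adjusted p = 0.0593). Metastases had 9.44, 9.40 and 9.44, below all metastasis-like primaries (9.46 to 9.65), without a call (-0.10 ± 0.07, adjusted p = 0.417). The 95% interval of that difference ran from -0.24 to 0.05. Against islet tumours, which they also did not overlap, metastases had -0.16 ± 0.07 (adjusted p = 0.0845).

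Of 22 measured genes of the mTOR pathway, 3 were higher and 8 lower in metastases than in islet tumours, where 36.6% of all genes were called. The median was -0.07 where that of all genes was -0.03. The GATOR1 complex, an amino acid-dependent brake on mTORC1, had its subunits move apart. Depdc5 averaged 9.31 in metastasis-like primaries and 8.57 in normal islets (0.74 ± 0.07, adjusted p = 1.04e-08), while Nprl3 averaged 8.10 and 9.17 in the same groups (-1.07 ± 0.10, adjusted p = 1.31e-08). Ddit4, a stress-induced inhibitor that acts through the Tsc complex, fell to 7.78 in islet tumours, against 9.42 in normal islets (-1.63 ± 0.15, adjusted p = 3.3e-08). Mtor itself averaged 8.82 in metastasis-like primaries and 9.14 in islet tumours (-0.32 ± 0.07, adjusted p = 0.00103). The S6 kinase Rps6kb2, encoded on chromosome 19, fell to 8.08 in metastases, against 8.71 in metastasis-like primaries (-0.63 ± 0.06, adjusted p = 4.51e-07).

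Phlda3 rose at the angiogenic step and was low again in metastases. It stood at 7.83, 7.83 and 7.70 in angiogenic islets, against 7.25, 7.27 and 7.31 in hyperplastic islets, with no overlap. Phlda3 was the only gene of the set called at this step (0.51 ± 0.10, adjusted p = 0.00373), where 2.53% of all genes were called. With the title code as a block Phlda3 had 0.51 ± 0.10 (limma, adjusted p = 0.00923), and it was higher in 3 of 3 codes. Islet tumours were divided, with 7.58, 7.74 and 7.71 in 3 of them and 7.38 and 7.37 in II-6415-tumor and III-8024-tumor. Metastasis-like primaries had 7.60 to 7.90 (median 7.79), and their excess over islet tumours of 0.23 ± 0.07 (adjusted p = 0.0261) was lost without any 1 of II-6415-tumor, III-8024-tumor, II-648-MLP and III-8016-MLP. Within the prefixes I, II and III that difference was 0.21, 0.28 and 0.19.

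In metastases Phlda3 stood at 7.43, 7.47 and 7.42, below every metastasis-like primary, with a difference of -0.35 ± 0.09 (adjusted p = 0.00852). Leaving out single arrays kept this between -0.39 and -0.32. The call was lost with the title prefix or code as a block, in which only I-9812-MLP shares the prefix of the metastases. It was also lost with the hepatocyte covariate, which cannot be separated from the metastasis label, so that loss says nothing about Phlda3. Markers of other cells moved in the same comparison. Of the macrophage markers 4 of 6 were lower, with means of 7.73 to 7.95 in metastases and 8.26 to 9.0 in metastasis-like primaries. Of the acinar markers 3 of 5 were lower (9.53 to 10.33 in metastases, 10.19 to 12.19 in metastasis-like primaries), and 7 of 7 hepatocyte markers were higher. At the angiogenic step, where Phlda3 was higher, so were fibroblast (6 of 6), macrophage (4 of 6) and endothelial markers (3 of 6). Endothelial means were 9.13 to 9.54 in angiogenic and 8.52 to 8.65 in hyperplastic islets, and macrophage means 8.64 to 9.20 and 7.98 to 8.31. The part of these cells in the Phlda3 differences was not tested. Between islet tumours and normal islets Phlda3 had 0.24 ± 0.09 (adjusted p = 0.0374), and 6 of the 8 fits without 1 array lost that call.

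Of 12 other p53 target genes and PHLDA relatives measured, 0 were called by limma between angiogenic and hyperplastic islets (1 at an unadjusted p under 0.05). With 2.53% of all genes called there, a count of 0 does not stand apart. The median was -0.01 where that of all genes was -0.04. Phlda1, a relative of Phlda3, averaged 8.94 in metastases and 8.08 in metastasis-like primaries, the opposite direction (0.86 ± 0.21, adjusted p = 0.00622). Cyclin G1 (Ccng1) fell to 9.24 in metastases, against 9.86 in metastasis-like primaries (-0.62 ± 0.14, adjusted p = 0.0035), and Pmaip1 (Noxa), which promotes apoptosis, fell to 6.68, against 7.16 (-0.49 ± 0.15, adjusted p = 0.0318).

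Mutyh rose at the first step of islet overgrowth and stayed high. It stood at 7.77, 7.86 and 7.81 in hyperplastic islets, against 7.37, 7.42 and 7.28 in normal islets. The groups do not overlap, and the difference of 0.46 ± 0.08 (adjusted p = 0.00052) made Mutyh the only gene of the set called at this step, where 8.64% of all genes were called. With the title code as a block Mutyh had 0.46 ± 0.08 (limma, adjusted p = 0.00158), and it was higher in 3 of 3 codes. Later stages lay at 7.80 to 7.86 in angiogenic islets, 7.86 to 8.10 in islet tumours, 7.89 to 8.18 across metastasis-like primaries and 7.98 to 8.10 in metastases. Metastases exceeded normal islets by 0.68 ± 0.08 (adjusted p = 4.05e-07), and no later step was called. Each of these calls held when any 1 array was left out.

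Cell cycle markers moved at the same step as Mutyh, with 7 of 7 higher in hyperplastic than in normal islets. Their mean was 9.40 to 9.52 in hyperplastic islets and 6.31 to 8.16 in normal islets. Their part in the Mutyh difference was not tested. The 19 measured base excision repair genes had a median of 0.22 at this step, where that of all genes was -0.01. Of these 19, 8 were called, all higher, where 8.64% of all genes were called. The replication factors Lig1 (9.43 in hyperplastic and 7.87 in normal islets, 1.56 ± 0.16, adjusted p = 5.66e-06) and Pcna (11.06 and 9.72, 1.34 ± 0.15, adjusted p = 8.37e-06) were among them. So was the glycosylase Mbd4, at 7.86 in hyperplastic and 6.94 in normal islets (0.92 ± 0.11, adjusted p = 1.22e-05). The glycosylase Neil2 took another course and fell to 5.98 in metastasis-like primaries, against 6.79 in islet tumours (-0.81 ± 0.12, adjusted p = 3.07e-05).

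**Figure D4:**
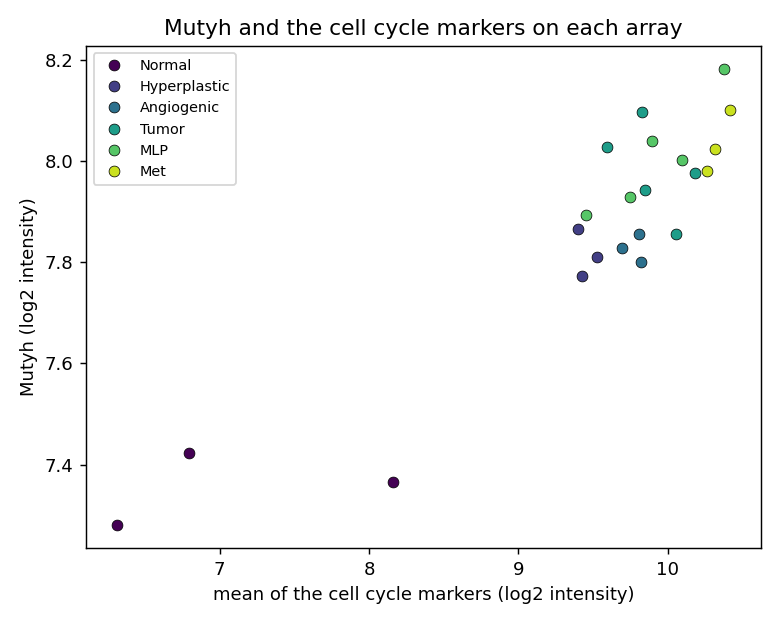
Mutyh level (y axis) against the mean of 7 cell cycle markers (x axis), both log2 intensity, with 1 point per array coloured by tissue label. The 3 normal islets lie lowest in both, with Mutyh at 7.28 to 7.42, and all later stages lie at 7.77 or above.

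Among 10 further genes mutated in or inherited with these tumours, 6 were higher and 1 lower in metastases than in normal islets, where 45.8% of all genes were called. The checkpoint kinase Chek2 averaged 7.86 in metastases and 6.20 in normal islets (1.66 ± 0.17, adjusted p = 6.59e-08), and 7.30 in hyperplastic islets. Kdm6a, an X-linked demethylase of histone H3 lysine 27, fell to 8.85 in islet tumours, against 9.34 in angiogenic islets (-0.49 ± 0.08, adjusted p = 0.000731), the comparison in which Xist differs.

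The calls of the 9 genes were set beside those of all genes. Each group was tested against the group before it in the listed order. There 1 gene was called in hyperplastic islets (Mutyh), 1 in angiogenic islets (Phlda3) and 1 in islet tumours (Tsc1). In metastasis-like primaries 3 were called (Daxx, Atrx and Phlda3, all higher) and in metastases 2 (Men1 and Phlda3, both lower). Of all genes 8.64%, 2.53%, 9.54%, 26.5% and 15.7% were called in the same comparisons. Against normal islets 4 were called in islet tumours, 7 across metastasis-like primaries and 6 in metastases. Men1 was the one called lower in the last 2 of these and all other calls were higher. These comparisons share the normal islets, and in each of them the groups also differ in Xist, which cannot be told apart from stage. Several calls near the threshold were lost when only the compared arrays were fitted, namely Tsc1 in islet tumours against angiogenic islets, Tsc2 and Phlda3 in islet tumours and Tsc2 in metastasis-like primaries against normal islets, and Daxx and Phlda3 in metastasis-like primaries against islet tumours (adjusted p = 0.0523 to 0.142). Quantile normalization ended the calls of Atrx and Setd2 in metastases against islet tumours (adjusted p = 0.104 and 0.0814). The median difference over the 9 genes was 0.26 in islet tumours, 0.26 across metastasis-like primaries and 0.32 in metastases, where that of all genes was -0.01, -0.02 and -0.04. With 4 of 9, 7 of 9 and 6 of 9, the counts stand against 29%, 42.8% and 45.8% of all genes.

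**Figure D5:**
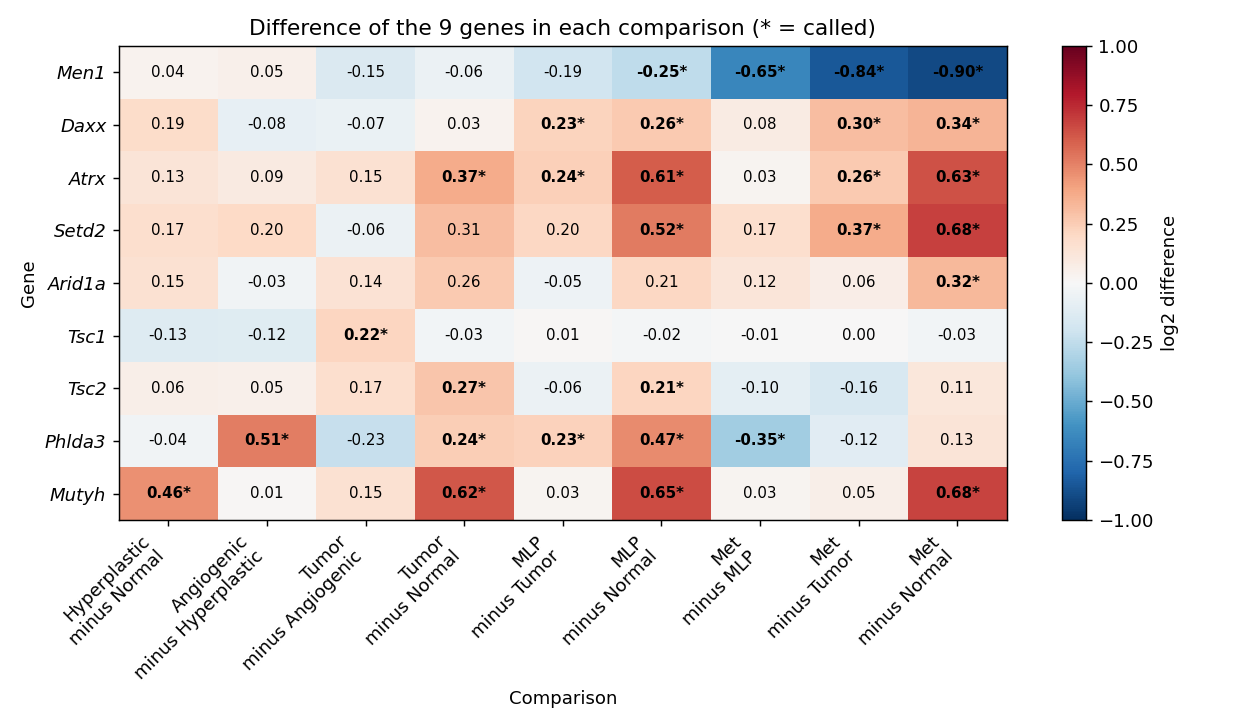
Log2 difference of each gene (rows) in each comparison (columns, first-named group minus second), as number and colour, with an asterisk where limma's adjusted p was below 0.05. Men1 is negative in all 3 comparisons of metastases (-0.65, -0.84 and -0.90), and Phlda3 changes sign between the angiogenic step (0.51) and the metastatic step (-0.35).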

How the data were processed

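Total RNA of the 22 samples was labelled and hybridised to whole-transcript mouse arrays, 1 array per sample, per the labels' protocols. The deposited values are log2 intensities, which the authors obtained with aroma.affymetrix, per the series design text; the sources used here give no background correction, normalization, genome build or annotation, and the log2 scale was read from the values. Of 35511 probe sets 21789 had 1 symbol in the platform table, 1621 had several and were left out, and 12101 were not listed. The probe set with the highest mean stood for a gene, which left 19938 genes, 19855 of them matched to RefSeq by identifier (0 symbols changed) and 19852 with a chromosome. Arrays carry no read depth, and their number limits the precision. Array medians lay between 7.08 and 7.22.

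Group means of all arrays were fitted together (limma 3.58.1, R 4.3.3), and 9 comparisons were tested, two-sided, with Benjamini-Hochberg adjustment over all genes of a comparison and a call below 0.05. The procedure was tested on simulated data. Figures were drawn with matplotlib 3.10.9. The genes studied, the pathway and marker lists and the comparisons were chosen with earlier results of these data known. Named genes are the 9, at most 3 called genes of a list with the smallest adjusted p per comparison, and the 3 genes most alike to each of the 9 that the F test called. Alternatives were a replicate block (2006, 2007 or the prefix I, II or III), quantile normalization, median centring, a fit of only the compared arrays, the dimmest 25% of genes left out, all probe sets, and each array left out. The hepatocyte covariate and the subtraction of chromosome shifts were chosen after seeing the data. Deviations of same-code arrays correlated by 0.197 to 0.448 between hyperplastic and normal islets and by 0.353 to 0.479 between angiogenic and hyperplastic islets. Different codes gave -0.368 to -0.058 and -0.393 to -0.062, so these codes pair the samples, from the data alone. Between angiogenic and normal islets same codes gave 0.057 to 0.144, weaker but above the -0.090 to 0.039 of different codes. The prefixes of primary tumours (-0.087 to 0.206, against -0.278 to 0.167 for different prefixes) do not pair them.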

Additional observations from a re-analysis of the deposited data

Results flagged for a closer look

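Atrx in I-9811-tumor, at 10.39, lay apart from the other 4 islet tumours (10.23 to 10.27) by 0.717 of the range of the group. Tsc1 in III-8017-tumor, at 9.17, lay below the other 4 islet tumours (9.24 to 9.26) by 0.806 of the range. These are 2 of 18 groups of 5 samples checked, and chance flags about 1 in 20 groups.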

How the results depend on the processing

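For the 29 called differences, 454 values under alternatives gave 388 with the same direction and call, 66 with the same direction and no call, and 0 reversed. With the replicate block 0 genes of the set were called between islet tumours and angiogenic islets, 2 between islet tumours and normal islets, 4 between metastasis-like primaries and normal islets and 1 between metastases and metastasis-like primaries (Men1), against 1, 4, 7 and 2. The calls lost were Tsc1 in the first, Tsc2 and Phlda3 in the second, Daxx, Setd2 and Tsc2 in the third and Phlda3 in the last (-0.36 ± 0.12, adjusted p = 0.0563). Counts of all genes are not given here for the block, nor for every other alternative. Whether other genes lost calls alike therefore cannot be read from these counts. In this block the islet code I-93 was joined with the tumour prefix I, which the labels do not equate. No other code is shared by islets and tumours, so their blocked differences are linked only through the arrays of I. The block changed neither call of the paired islet comparisons. Fitting only the compared arrays gave 0 for the first and 2 for the second of these, and 1 between metastasis-like primaries and islet tumours, against 3. Between islet tumours and angiogenic islets quantile normalization gave 2 and the subtraction of chromosome shifts gave 0. The hepatocyte covariate gave 0 there, 1 between metastasis-like primaries and islet tumours, and in metastases 0 against metastasis-like primaries, 0 against islet tumours and 3 against normal islets. In the comparisons of metastases this covariate cannot be separated from the label. The cause was not tested. Leaving out 1 array gave 0 to 2 genes between islet tumours and angiogenic islets, 2 to 5 between islet tumours and normal islets, 1 to 3 between metastasis-like primaries and islet tumours and 2 to 4 between metastases and islet tumours.

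Over all genes, 505 were called between angiogenic and hyperplastic islets, and 275, 316, 284 and 869 without Hyperplastic2006, Hyperplastic2007, Angiogenic2006 and Angiogenic2007. Between islet tumours and angiogenic islets 1903 became 768 with only the compared arrays, 732 and 1025 without AngiogenicI-93 and Angiogenic2006 and 1164 with the hepatocyte covariate. Between metastases and metastasis-like primaries 3126 became 1950 and 1988 without I-9821-Met and I-9822-Met and 53 with that covariate, which also left 242 against islet tumours and 2123 against normal islets (7296 and 9139). Under quantile normalization and median centring the chromosome 19 median between metastases and metastasis-like primaries was -0.38 and -0.36.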

Other observations

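Single islet tumours had shifts of other chromosomes that touch few of the genes studied. The median over chromosome 16 genes was -0.33 in I-9811-tumor and -0.33 in III-8017-tumor relative to normal islets, and that over chromosome 14 genes was -0.28 in II-649-tumor and -0.26 in II-6415-tumor. None of the 9 genes lies on chromosome 14 or 16. In II-649-tumor chromosome 9 was also low (-0.16), and Setd2, which is on chromosome 9, was at 9.45, the lowest of the islet tumours. Of the pathway genes, 5 on chromosome 19, chosen after their values were seen, were measured in metastases against metastasis-like primaries. Rps6kb2, Dpf2, Kdm2a and Smarca2 were called lower, and Fen1, a flap endonuclease of base excision repair, had -0.42 ± 0.17 (adjusted p = 0.1).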
